A study of Mus musculus with 16 samples.

Results

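The genes described here are 7 clock output and E-box regulator genes, Dbp, Tef, Nfil3, Per3, Ciart, Bhlhe40 and Bhlhe41, taken by name from the 56748 genes of the deposited count table. Each name matched 1 row, and all 7 genes were among the 13438 with enough reads to be tested. They were measured by poly(A) RNA sequencing in wild-type mouse bone marrow-derived macrophages, primary cells that were differentiated from the marrow of 4 male C57BL6 mice in medium conditioned by L929 cells. Cells of each mouse gave 1 library to each of 4 groups, 16 libraries in all. The DMSO group received vehicle. The LPS group received 100 ng/mL lipopolysaccharide, the bacterial ligand of Toll-like receptor 4, for 6 hours. The SR9009 group received 10 µM SR9009, a synthetic agonist of the nuclear receptors REV-ERBα and REV-ERBβ, for 16 hours. The fourth group received SR9009 and then LPS at the same doses and times. The shared protocol describes an overnight step with either SR9009 or vehicle ahead of LPS, but the label of the LPS group names LPS alone, so whether its cells had vehicle is not stated outright. If they did not, a difference in vehicle cannot be told apart from the effects of LPS, or of SR9009 under LPS, that rest on that group. The replicates are mice, and the cells were sampled at 1 time, so that a change in level and a shift of clock phase cannot be told apart.

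In the mammalian clock, BMAL1 and CLOCK bind E-box DNA (CACGTG) and drive the Period and Cryptochrome genes, whose proteins in turn repress BMAL1 and CLOCK. A second layer of regulators acts around this loop. DBP and TEF are activators of the PAR bZIP family that bind D-box DNA (TTATGTAA and relatives), and NFIL3, also a bZIP protein, represses from the same sites. BHLHE40 and BHLHE41 (DEC1 and DEC2) and CIART (CHRONO) repress transcription driven by BMAL1 and CLOCK. The REV-ERB proteins repress through the core AGGTCA preceded by A and T bases, and genes such as Bmal1 and Nfil3 are known as REV-ERB targets in other tissues. In macrophages, BHLHE40 is known as a repressor of Il10, and Nfil3 as a gene that LPS induces.

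Total counts ran from 12616442 to 24214863 per library. The SR9009 library of mouse 1 stood apart. It had the lowest total, 13298 detected genes against 16419 to 18947 in the others, 1.64% of its counts on mitochondrial genes against 0.462% to 1.22%, and a score of 151 on the second principal component against −31.8 to 31.3. For the 7 genes, values without it are given where that changes a call, and counts over the context lists are given with and without it where they differ. The macrophage markers were all expressed (7 of 7, summed level 5228 to 10007 CPM, that is, read counts scaled to a common library size with TMM-adjusted totals). The 5 endothelial markers summed to 7.19 to 18.4 CPM with DMSO and 102 to 197 CPM with LPS, most of it Kdr (up to 186 CPM, with Pecam1 up to 10.8 and Cdh5 up to 4.91). The other 8 lists, of which Ly6g, Ncr1, Eomes, Hbb-bs, Mcpt8, Tpsb2 and Fcer1a were at 0 counts, stayed at or below 15.8 CPM in every library, and the part of any of these cells in the results was not tested. The inflammatory genes used to check the treatment, Tnf, Il6 and Nos2, rose with LPS, Tnf from 12.5 ± 3.90 to 924 ± 163 CPM (SD, n = 4; edgeR adjusted p = 3.31e-05).

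**Figure D1:**
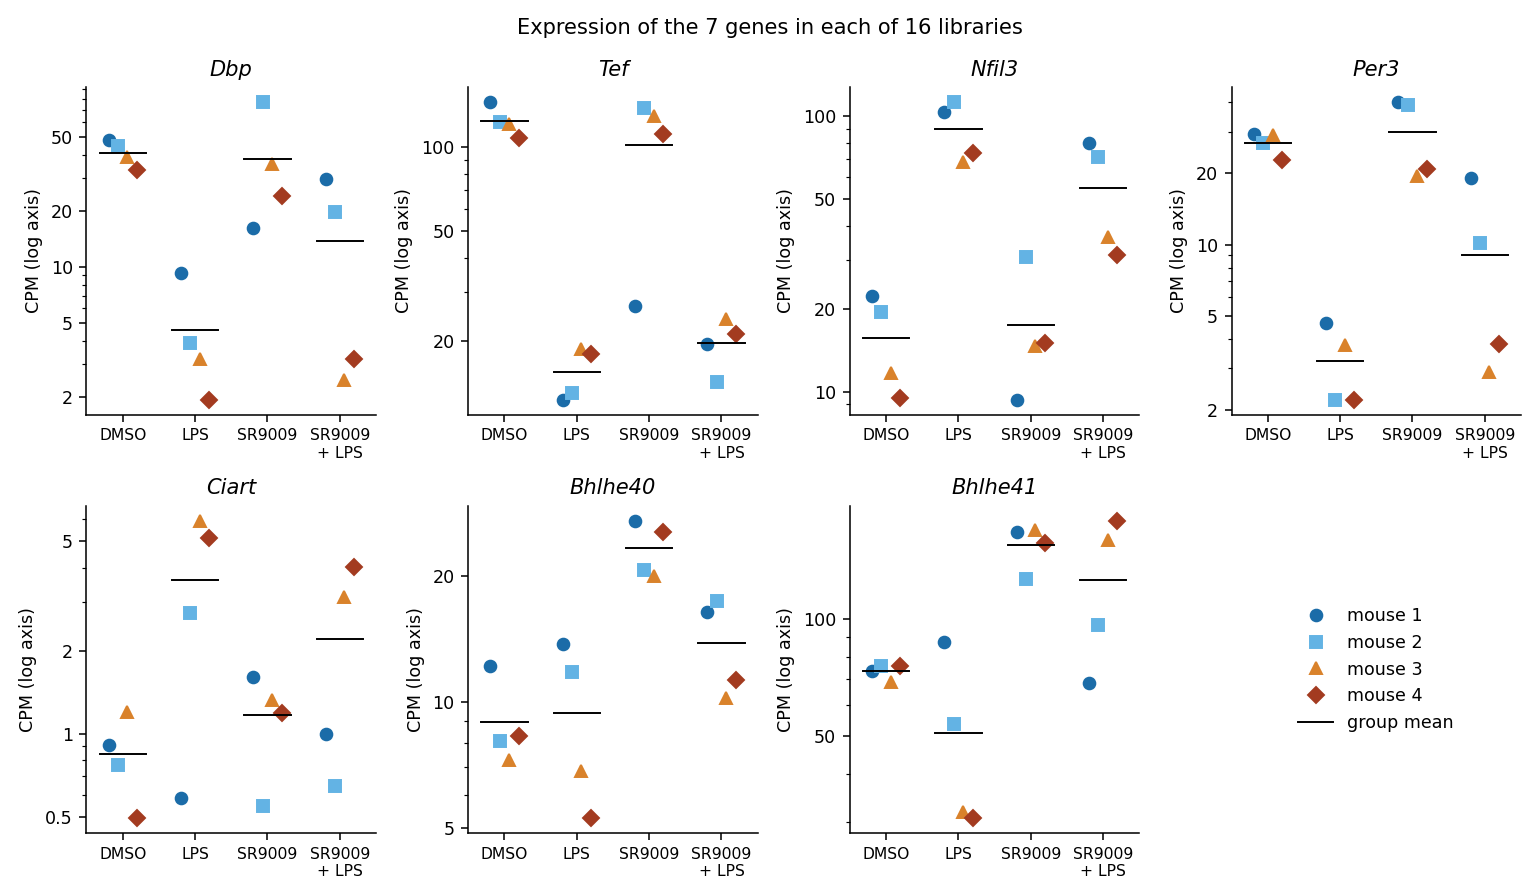
Level of each of the 7 genes in depth-scaled read counts (CPM, log axis) in the 16 libraries, by group, with 1 symbol per mouse and a bar for the group mean. Tef and Per3 lie lower and Nfil3 higher in each LPS-treated group than in its counterpart without LPS. Dbp is low with LPS alone but runs from 2.45 to 29.7 CPM with SR9009 and LPS, overlapping SR9009 alone. The SR9009 library of mouse 1 lies far below the other SR9009 libraries for Tef (26.8 CPM).

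The genes lie on 6 chromosomes. In GRCm39 coordinates from the deposited table, Dbp (ENSMUSG00000059824) spans bases 45354512 to 45359627 of chromosome 7 and Tef (ENSMUSG00000022389) bases 81686622 to 81711064 of chromosome 15. Nfil3 (ENSMUSG00000056749) spans 53121245 to 53135109 of chromosome 13, Per3 (ENSMUSG00000028957) spans 151088109 to 151129122 of chromosome 4, and Ciart (ENSMUSG00000038550) spans 95785815 to 95789563 of chromosome 3. Bhlhe40 (ENSMUSG00000030103, 108637590 to 108643886) and Bhlhe41 (ENSMUSG00000030256, 145803969 to 145811284) are both on chromosome 6. All 7 are annotated as protein coding.

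Some of these genes share ground with others, and whether reads were assigned by strand is not given in the sources used here. Dbp overlaps Sphk2 on the opposite strand over 737 bases. Sphk2 had 40478 counts in all against 9510 for Dbp, and it rose with LPS (log2 1.38, edgeR adjusted p = 0.0414) while Dbp fell. Ciart lies wholly within the span of the antisense long noncoding RNA C920021L13Rik (372 counts against 559), which had a log2 fold change of −0.28 with LPS (adjusted p = 0.651). Per3 lies within the span of Camta1 on the same strand (2150 counts against 6434), which had −0.26 (adjusted p = 0.645). For Dbp, Ciart and Per3, reads of the partner cannot be separated from those of the gene here.

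Promoter sequence was searched for the DNA elements named above. RefSeq windows from 250 bases before to 50 after the start (build GRCm38.p6, not the build of the counts) were found for 6 of the 7 genes, with 2 starts for Tef. The sequences shown are the 250 bases upstream of the start, 5′ to 3′ on the strand of the gene, for the 4 genes whose windows held a full clock element, with the matches in capitals. The D-box TTATGTAA, read on both strands, occurred in the window of Per3 at 205 and 158 bases upstream. The E-box CACGTG, which reads alike on both strands, occurred at 116, 58 and 44 bases upstream of Ciart, at 127 and 138 bases upstream of the first and second starts of Tef, and at 153 bases upstream of Bhlhe41.
Per3 (chr4:151044666-151044915, minus strand): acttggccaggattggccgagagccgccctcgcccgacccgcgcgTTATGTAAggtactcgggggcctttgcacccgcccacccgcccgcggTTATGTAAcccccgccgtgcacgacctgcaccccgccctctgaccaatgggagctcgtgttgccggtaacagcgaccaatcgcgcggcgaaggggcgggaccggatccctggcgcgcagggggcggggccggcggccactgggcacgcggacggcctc
Ciart (chr3:95882229-95882478, minus strand): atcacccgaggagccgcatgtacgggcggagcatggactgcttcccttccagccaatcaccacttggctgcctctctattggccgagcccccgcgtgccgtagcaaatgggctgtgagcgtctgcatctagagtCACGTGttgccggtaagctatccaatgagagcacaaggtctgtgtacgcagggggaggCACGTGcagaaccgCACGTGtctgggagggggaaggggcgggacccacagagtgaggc
Tef, first start (chr15:81802423-81802672, plus strand): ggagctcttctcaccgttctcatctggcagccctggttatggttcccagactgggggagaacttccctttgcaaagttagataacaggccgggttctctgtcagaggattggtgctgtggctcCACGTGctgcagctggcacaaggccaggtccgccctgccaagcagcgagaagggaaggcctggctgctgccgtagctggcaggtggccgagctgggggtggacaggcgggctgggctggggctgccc
Tef, second start (chr15:81811164-81811413, plus strand): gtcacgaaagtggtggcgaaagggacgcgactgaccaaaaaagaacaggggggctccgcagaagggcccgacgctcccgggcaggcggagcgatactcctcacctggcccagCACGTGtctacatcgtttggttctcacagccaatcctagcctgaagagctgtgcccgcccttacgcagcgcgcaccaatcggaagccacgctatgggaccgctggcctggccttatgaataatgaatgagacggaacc
Bhlhe41 (chr6:145865421-145865670, minus strand): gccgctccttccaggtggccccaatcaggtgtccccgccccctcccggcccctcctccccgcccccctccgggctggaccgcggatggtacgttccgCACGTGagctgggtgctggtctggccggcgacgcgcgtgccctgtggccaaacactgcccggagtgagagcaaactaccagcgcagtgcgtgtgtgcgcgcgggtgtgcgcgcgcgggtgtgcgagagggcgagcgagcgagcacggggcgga

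Of 32817 promoter windows of this length in the RefSeq table, 7.15% held the E-box, 0.0884% held 3 or more of them as Ciart did, 0.935% held TTATGTAA, and 0.0244% held 2 or more D-boxes (TTATGTAA or TTACGTAA) as Per3 did. The window of Nfil3 held the plain core AGGTCA, on the opposite strand at 12 bases upstream, which 16.3% of windows hold, and none of the 4 longer REV-ERB and ROR forms searched, each of which contains that core. The window of Dbp held no match. The E-box variant CACGTT, the NF-kB sites searched, and the cyclic AMP element TGACGTCA had no match in any of these windows. A match describes these letters in this window and says nothing on binding. Genes with an E-box here moved in different ways with LPS, since Tef fell, Ciart rose and Bhlhe41 did not pass.

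**Figure D2:**
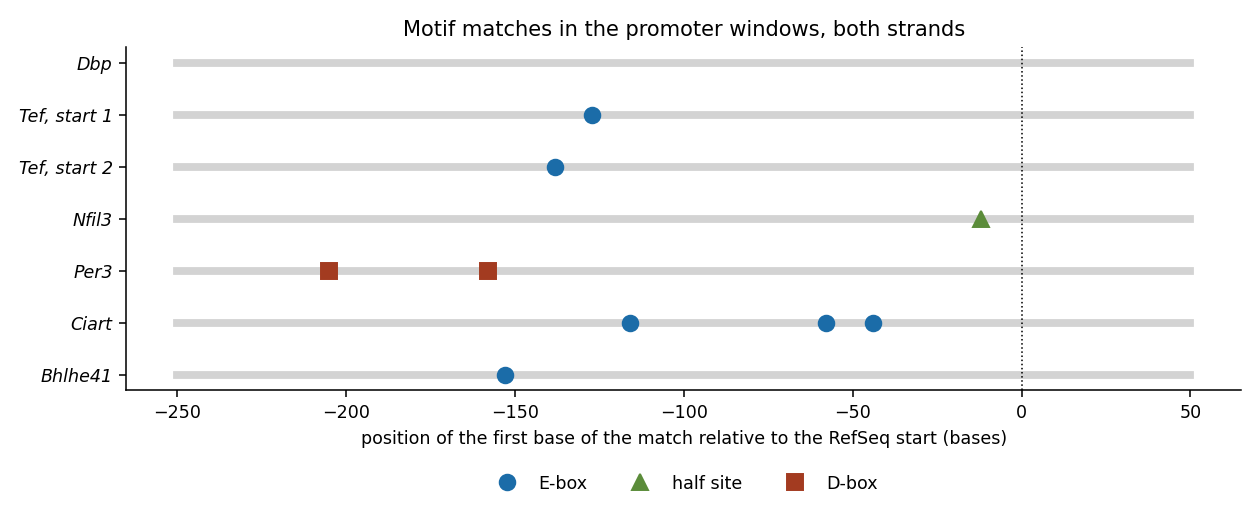
Positions of the motif matches in the 7 RefSeq promoter windows of 6 genes, from 250 bases before to 50 after the start; circles are E-boxes, squares D-boxes and the triangle the core AGGTCA. Per3 carries 2 D-boxes and Ciart 3 E-boxes.

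Levels of the 7 genes were compared with each other per length, as deposited FPKM (fragments scaled to gene length and library depth). In DMSO-treated macrophages the PAR bZIP activators led, Tef at 15.4 ± 1.81 and Dbp at 13.4 ± 2.02 FPKM (SD, n = 4), followed by Bhlhe41 at 10.6 ± 0.533 and Nfil3 at 7.52 ± 2.91. Each of these overlapped the next in the order. Per3 at 2.73 ± 0.290 and Bhlhe40 at 1.85 ± 0.440 lay below all of them and overlapped each other, and Ciart was lowest at 0.362 ± 0.125 FPKM. With LPS the order changed. Nfil3 led at 44.5 ± 11.6 FPKM, with no overlap with Bhlhe41 at 7.67 ± 4.16, and Bhlhe40, Tef, Ciart and Dbp followed between 2.02 and 1.55 with overlapping ranges. Per3 was last at 0.337 ± 0.132 FPKM. With SR9009 alone Bhlhe41 had the highest mean, 22.2 ± 3.41 FPKM. Its range lay above that of Tef (12.2 ± 5.90) but overlapped that of Dbp (12.0 ± 8.30), which in mouse 2 was at 24.0 against 17.6 FPKM for Bhlhe41. With SR9009 and LPS, Nfil3 (26.9 ± 12.3) and Bhlhe41 (18.5 ± 7.43) led and overlapped. These are levels in bulk cells, in which fewer expressing cells and less RNA per cell cannot be told apart.

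LPS was set against DMSO to see how these regulators respond to an inflammatory stimulus. The D-box activators Dbp and Tef and the Period gene Per3 fell about as far as each other, and the D-box repressor Nfil3 rose. Of the 7 genes, 2 rose and 3 fell, where 19.4% of all tested genes rose and 20.4% fell. The share of the 7 past the threshold is thus to be read against a response that takes in 39.8% of all genes. With upper-quartile scaling the log2 median over all genes went from −0.08 to −0.28, and 2126 genes were higher and 3459 lower in place of 2611 and 2741, but the same counts of 2 and 3 were obtained for the 7. The median of the 7 was −0.53 on the log2 scale, against −0.08 over all genes.

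Dbp had 47.9, 44.7, 38.9 and 33.3 CPM in the DMSO libraries of mice 1 to 4 and 9.32, 3.89, 3.20 and 1.93 CPM in their LPS libraries. All 4 LPS libraries lay below all 4 DMSO libraries, and the mouse 1 library was the highest of its group in both. Dbp fell by 3.17 on the log2 scale (SE 0.74, edgeR adjusted p = 0.00301), a 9.03-fold lower level. Tef had 146, 123, 121 and 109 CPM with DMSO and 12.3, 13.0, 18.8 and 18.1 CPM with LPS. These groups did not overlap either, and Tef fell by 3.00 (SE 0.39, adjusted p = 1.85e-05), in 4 of 4 mice. Groups without overlap in the lower direction were found for 30.5% of all genes.

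Nfil3, the opposing bZIP repressor, had 22.3, 19.4, 11.6 and 9.47 CPM with DMSO and 103, 112, 68.3 and 73.6 CPM with LPS. Mice 1 and 2 were above mice 3 and 4 in both groups, and the groups did not overlap, as for 27% of all genes in the higher direction. Nfil3 went up by 2.51 in log2 (SE 0.41, edgeR adjusted p = 0.000176), a 5.69-fold higher level, in 4 of 4 mice.

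The balance between the D-box repressor and its activators can be read per length within a library. The FPKM ratio of Nfil3 to Dbp ran from 0.420 to 0.688 in the DMSO libraries and from 16.4 to 56.4 in the LPS libraries. The ratio of Nfil3 to Tef ran from 0.339 to 0.612 and from 14.1 to 33.4. Nfil3 transcripts were thus fewer than those of either activator in every DMSO library and more in every LPS library. With SR9009 alone the Nfil3 to Dbp ratio was 0.592 to 0.916, and the Nfil3 to Tef ratio was 0.440 to 1.35, above 1 only in mouse 1. With SR9009 and LPS these ratios were 3.99 to 21.9 and 5.74 to 19.4. Such ratios describe transcripts and carry no test.

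**Figure D3:**
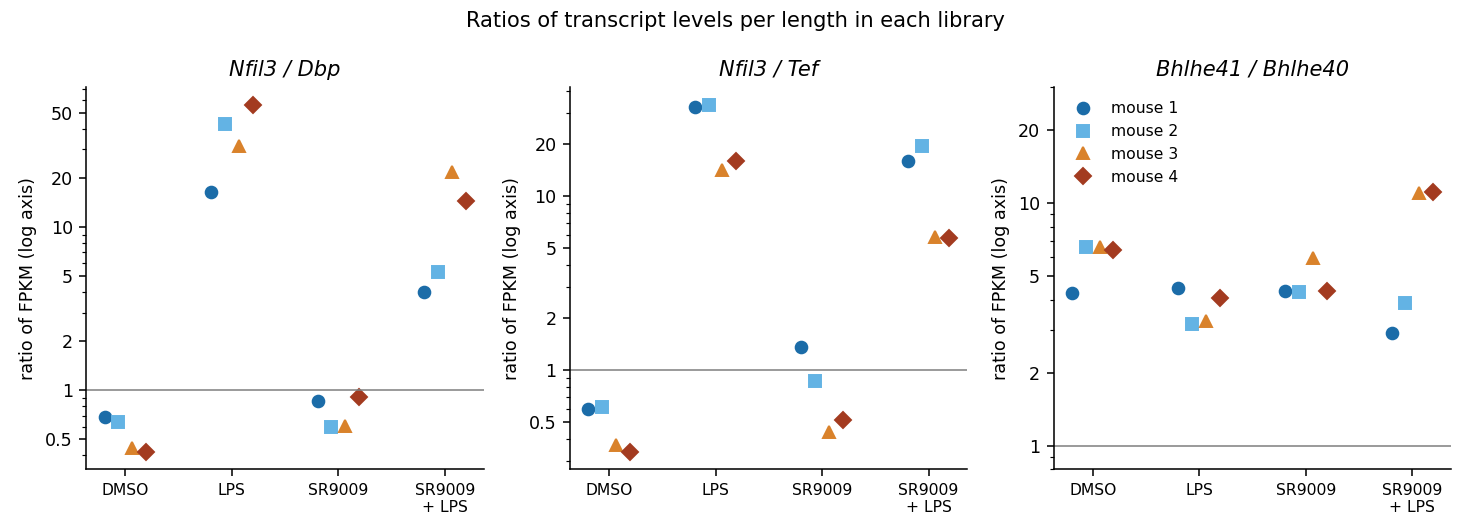
Ratio of deposited FPKM values (log axis) in each library for Nfil3 over Dbp, Nfil3 over Tef and Bhlhe41 over Bhlhe40, by group and mouse; the line marks a ratio of 1. Nfil3 over Dbp lies between 0.420 and 0.688 with DMSO and between 16.4 and 56.4 with LPS, and Bhlhe41 exceeds Bhlhe40 in every library.

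Per3, a Period family member whose promoter carries the pair of D-boxes shown above, had 29.3, 26.8, 29.1 and 22.8 CPM with DMSO and 4.66, 2.21, 3.76 and 2.21 CPM with LPS. Every LPS library was below every DMSO library. Per3 fell by 3.07 (SE 0.52, adjusted p = 0.000209), in 4 of 4 mice. Ciart, the gene with 3 promoter E-boxes, was the least abundant, with 15 to 36 counts per DMSO library and 7 to 96 per LPS library. It had 0.910, 0.769, 1.20 and 0.493 CPM with DMSO and 0.582, 2.74, 5.92 and 5.14 CPM with LPS. The groups overlapped through mouse 1, in which Ciart was lower with LPS, whereas it was higher in the other 3 mice. The fitted change passed (log2 2.09, SE 0.65, adjusted p = 0.0179). Without mouse 2, 3 or 4 it did not (adjusted p = 0.0536, 0.102 and 0.14), nor with limma-voom (0.0612).

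The paralogs Bhlhe40 and Bhlhe41 did not pass in this comparison. Bhlhe40 had 12.2, 8.08, 7.29 and 8.32 CPM with DMSO and 13.7, 11.8, 6.84 and 5.28 CPM with LPS (log2 0.07, 95% interval −0.56 to 0.70, adjusted p = 0.874). The sign of so small a value turned under 4 settings, upper-quartile scaling among them. Its paralog Bhlhe41 had 73.7, 75.9, 68.7 and 75.9 CPM with DMSO and 87.3, 53.7, 31.9 and 30.7 CPM with LPS. The DMSO libraries lay close together and the LPS libraries spread 2.84-fold, with mouse 1 above the DMSO range and the other 3 below it. The log2 fold change was −0.53 (SE 0.33, adjusted p = 0.217), and without mouse 1 it passed at −0.95 (adjusted p = 0.00818).

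LPS was also compared in cells that had received SR9009, by setting SR9009 and LPS against SR9009 alone. Nfil3 rose and Tef and Per3 fell, so 1 of the 7 was higher and 2 were lower, where 30.3% of all genes passed, 14.5% higher and 15.8% lower. The 8 libraries are other than those of the comparison above, but they come from the same mice and share its fit over all libraries. Tef had 26.8, 139, 129 and 112 CPM with SR9009 and 19.6, 14.3, 24.2 and 21.2 CPM with both agents. The groups did not overlap, as for 13.4% of all genes in the lower direction, though mouse 1 came close from the side of SR9009 alone, and Tef fell by 2.36 (SE 0.38, adjusted p = 0.000189). Nfil3 had 9.34, 30.8, 14.7 and 15.0 CPM with SR9009 and 80.1, 71.1, 36.3 and 31.3 CPM with both, again without overlap, as for 13.9% of all genes in the higher direction (log2 1.65, SE 0.40, adjusted p = 0.00539). The 3 calls held without the SR9009 library of mouse 1, with −2.61 for Tef, 1.50 for Nfil3 and −1.48 for Per3, where 22.7% of all genes were higher and 20.8% lower.

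Per3 had 40.0, 39.0, 19.5 and 20.9 CPM with SR9009 and 19.1, 10.2, 2.91 and 3.79 CPM with both agents. The groups just failed to overlap, and within each group mice 1 and 2 were above mice 3 and 4. Per3 fell by 1.73 (SE 0.48, adjusted p = 0.0127). Leaving out mouse 2, 3 or 4 ended the call (edgeR adjusted p = 0.099, 0.0512 and 0.0621), as did fitting these groups alone (0.0847). Dbp had 16.1, 76.9, 35.7 and 24.1 CPM with SR9009 and 29.7, 19.8, 2.45 and 3.20 CPM with both. The ranges overlapped, mouse 1 was higher with LPS added and the other 3 were lower, and the change did not pass (log2 −1.47, SE 0.69, adjusted p = 0.121), whereas it passed without mouse 1 (−2.37, adjusted p = 0.0166). Bhlhe40 was lower in 4 of 4 mice without overlap between the groups but did not pass (log2 −0.75, SE 0.30, adjusted p = 0.0676). With mouse number in the model (the replicate block) both passed, Dbp at −1.92 (adjusted p = 0.0297) and Bhlhe40 at −0.79 (adjusted p = 0.0178), so that 1 of the 7 was called up and 4 down, against 16.4% and 17.6% over the whole table. Ciart (log2 0.93, adjusted p = 0.299) and Bhlhe41 (−0.30, adjusted p = 0.532) did not pass.

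SR9009 was set against DMSO to read the response of these genes to the agonist in resting macrophages. The paralogs Bhlhe40 and Bhlhe41 were the pair with higher levels in every mouse, and Bhlhe40 passed. Of the 7 genes, 1 rose and 0 fell (2 and 0 at an unadjusted p under 0.05), where 0.878% of all genes passed, 0.313% higher and 0.566% lower. An unadjusted edgeR p under 0.05 was found for 1570 of the 13438 tested genes. For the 7, DESeq2 and limma-voom gave the same counts. This comparison shares its DMSO libraries with that of LPS against DMSO and its SR9009 libraries with the one just given, and SR9009 and LPS against LPS shares its libraries with both LPS comparisons, so the 4 are not independent. The median of the 7 was 0.16 against 0.01 over all genes.

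Bhlhe40 had 27.0, 20.6, 20.0 and 25.4 CPM with SR9009, against 7.29 to 12.2 CPM with DMSO. All 4 SR9009 libraries were above all 4 DMSO libraries, as for 4.9% of all genes. The rise of Bhlhe40 was 1.38 in log2 (SE 0.30, edgeR adjusted p = 0.0426), a 2.60-fold higher level, in 4 of 4 mice with differences between 1.12 and 1.56. The adjusted p was close to the threshold and the call ended under 8 of 16 other settings, while the estimate stayed between 1.01 and 1.45. Leaving out the mouse 1 library of SR9009 gave 1.26 (adjusted p = 0.0549), while 0.696% of all genes rose there, and without mouse 2, 3 or 4 the adjusted p was 0.327, 0.296 and 0.373, and with the 2 groups fitted alone 0.122.

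Bhlhe41 had 168, 126, 169.6 and 157 CPM with SR9009, against 68.7 to 75.9 CPM with DMSO. The groups did not overlap and all 4 mice were higher. The log2 fold change was 1.08 (SE 0.33, 95% interval 0.38 to 1.78) and did not pass over all genes (adjusted p = 0.209), nor under any of the 16 other settings. Bhlhe41 remained the more abundant paralog per length, at 4.25 to 6.60 times the FPKM of Bhlhe40 with DMSO and 4.29 to 5.95 times with SR9009. Only with SR9009 and LPS did this ratio spread widely, from 2.92 to 11.1.

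The other 5 genes did not pass with SR9009 alone. Their log2 fold changes were −0.11 for Dbp (95% interval −1.54 to 1.32), −0.29 for Tef (−1.05 to 0.47), 0.16 for Nfil3 (−0.68 to 0.99), 0.14 for Per3 (−0.85 to 1.13) and 0.45 for Ciart (−0.92 to 1.82), with adjusted p from 0.787 to 0.958. The library of mouse 1 stood apart from the other SR9009 libraries, with Tef at 26.8 CPM against 112 to 139 in the other 3 SR9009 libraries and Nfil3 at 9.34 against 14.7 to 30.8. Without it Tef was at −0.02, Nfil3 at 0.32, and the signs of Dbp (0.11) and Per3 (−0.07) turned. Nfil3, a REV-ERB target in other settings, was higher with SR9009 in 3 of 4 mice and lower in mouse 1.

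**Figure D4:**
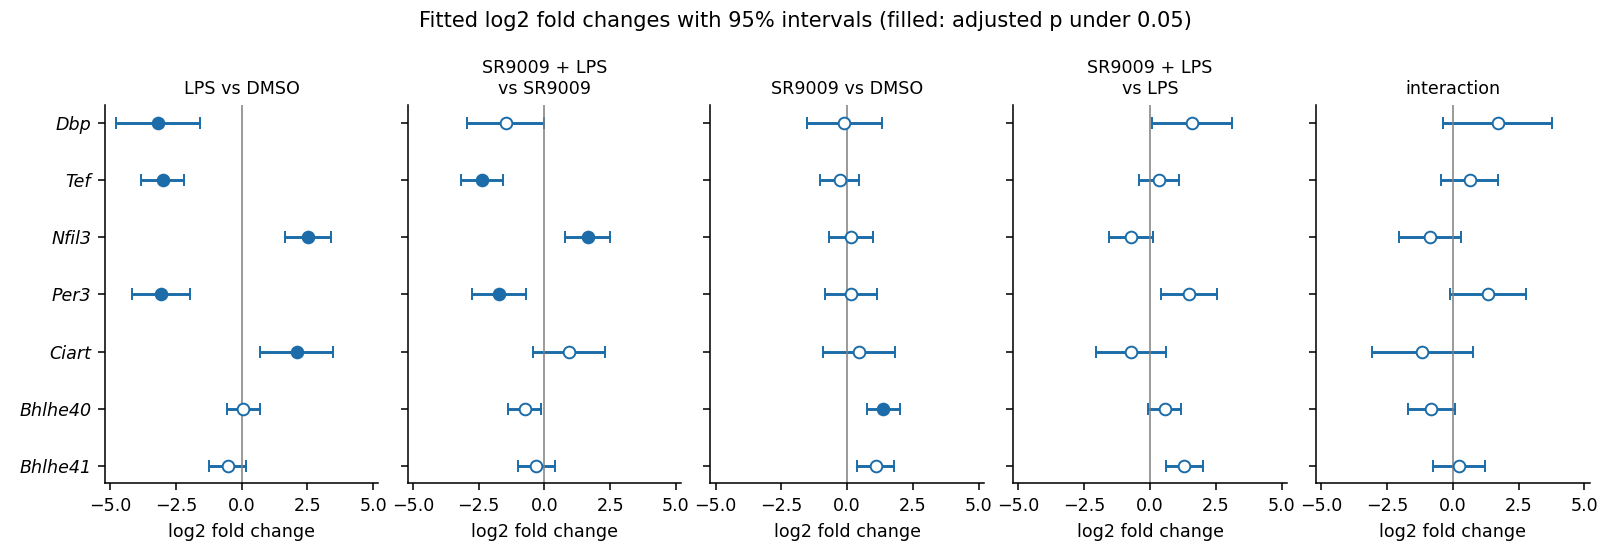
Fitted log2 fold change with its 95% interval for each gene in 5 comparisons; filled points passed an edgeR adjusted p of 0.05 and open points did not. LPS comparisons hold 5 and 3 filled points, SR9009 against DMSO has 1 (Bhlhe40), and SR9009 and LPS against LPS and the interaction have none.

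In stimulated cells, the effect of the agonist was read from SR9009 and LPS against LPS alone. None of the 7 passed with edgeR, where 1.79% of all genes did, 1.06% higher and 0.737% lower. The 3 genes Dbp, Per3 and Bhlhe41 had an unadjusted edgeR p under 0.05, each higher with SR9009. With limma-voom 1 was higher and 1 lower at that unadjusted threshold. These unadjusted counts are not to be set against the shares just given, which are of adjusted p. The number over all genes at the unadjusted threshold is not given here, so the counts are not read as a result about the 7. By adjusted p DESeq2 called 1 of the 7 higher, where it called 706 of all genes, and limma-voom called 0, where it called 228. The groups overlapped for all 7 genes, and were apart for 14.4% of all genes.

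Bhlhe41 came nearest, with 68.3, 96.6, 160.0 and 179 CPM with both agents against 87.3, 53.7, 31.9 and 30.7 CPM with LPS alone. It was lower with SR9009 in mouse 1 and higher in mice 2, 3 and 4, with within-mouse log2 differences of −0.35, 0.84, 2.31 and 2.53. The fit gave 1.31 (SE 0.33, adjusted p = 0.0606). It passed once the mouse 1 library of SR9009 was left out (1.33, adjusted p = 0.0209), which is not part of either group but of the shared estimate of spread, and also without mouse 1 (1.94, adjusted p = 0.00214), with upper-quartile scaling (0.0477) and with DESeq2 (0.0113). Of 16 other settings, Bhlhe41 passed under 5 and did not pass under 11. Across these fits its estimate ran from 0.91 to 1.94 and the adjusted p reached 0.529. Without the SR9009 library of mouse 1, 6.68% of all genes rose in this comparison. Bhlhe40 was at 16.4, 17.4, 10.2 and 11.3 CPM with both agents, higher than with LPS alone in 4 of 4 mice (log2 0.56, SE 0.30, adjusted p = 0.447).

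Dbp and Per3 separated by mouse. Dbp with both agents stood at 29.7 and 19.8 CPM in mice 1 and 2 and at 2.45 and 3.20 CPM in mice 3 and 4, so that the former were above and the latter within the range of LPS alone (1.93 to 9.32 CPM). Its log2 fold change was 1.59 (SE 0.71, adjusted p = 0.332). Per3 followed the same order, with 19.1 and 10.2 CPM in mice 1 and 2 and 2.91 and 3.79 CPM in mice 3 and 4, against 2.21 to 4.66 CPM with LPS alone (log2 1.49, SE 0.50, adjusted p = 0.159). Tef, the other PAR bZIP gene, stood in the opposite order at a narrower spread, with 19.6, 14.3, 24.2 and 21.2 CPM (log2 0.35, SE 0.36, adjusted p = 0.768). Nfil3 was lower with SR9009 in 4 of 4 mice, at 80.1, 71.1, 36.3 and 31.3 CPM, but overlapped LPS alone (log2 −0.71, SE 0.39, adjusted p = 0.465). Ciart had 0.999, 0.648, 3.13 and 4.03 CPM, with mice 3 and 4 above mice 1 and 2 (log2 −0.71, SE 0.63, adjusted p = 0.71).

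With both agents, mice 1 and 2 were thus above mice 3 and 4 for Dbp, Per3, Nfil3 and Bhlhe40 and below them for Tef, Ciart and Bhlhe41. With LPS alone they were above for Dbp, Nfil3 and Bhlhe40 and below for Tef and Ciart as with both agents, but Bhlhe41 was above and Per3 was mixed. With DMSO they were above for Dbp, Tef and Nfil3. The third principal component of all genes, with 8.86% of the variance, also placed these libraries apart. The 4 LPS-treated libraries of mice 1 and 2 scored 9.67 to 54.8 on it and those of mice 3 and 4 −35.3 to −31.8. The labels name no batch, and this grouping was read from the values, so it was not tested. The share of all tested genes that split mice 1 and 2 from mice 3 and 4 is not given here. The split is thus not read as particular to the genes named.

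With the replicate block and without the SR9009 library of mouse 1, 4 of the 7 passed in SR9009 and LPS against LPS, Bhlhe41 (1.36, adjusted p = 0.0263), Per3 (1.30, adjusted p = 0.0458) and Bhlhe40 (0.62, adjusted p = 0.04995) as higher and Nfil3 (−0.76, adjusted p = 0.00188) as lower. In that fit 11.6% of all genes rose and 9.7% fell. When the block was used and all libraries were kept none of the 7 passed, where 3.98% of all genes did.

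**Figure D5:**
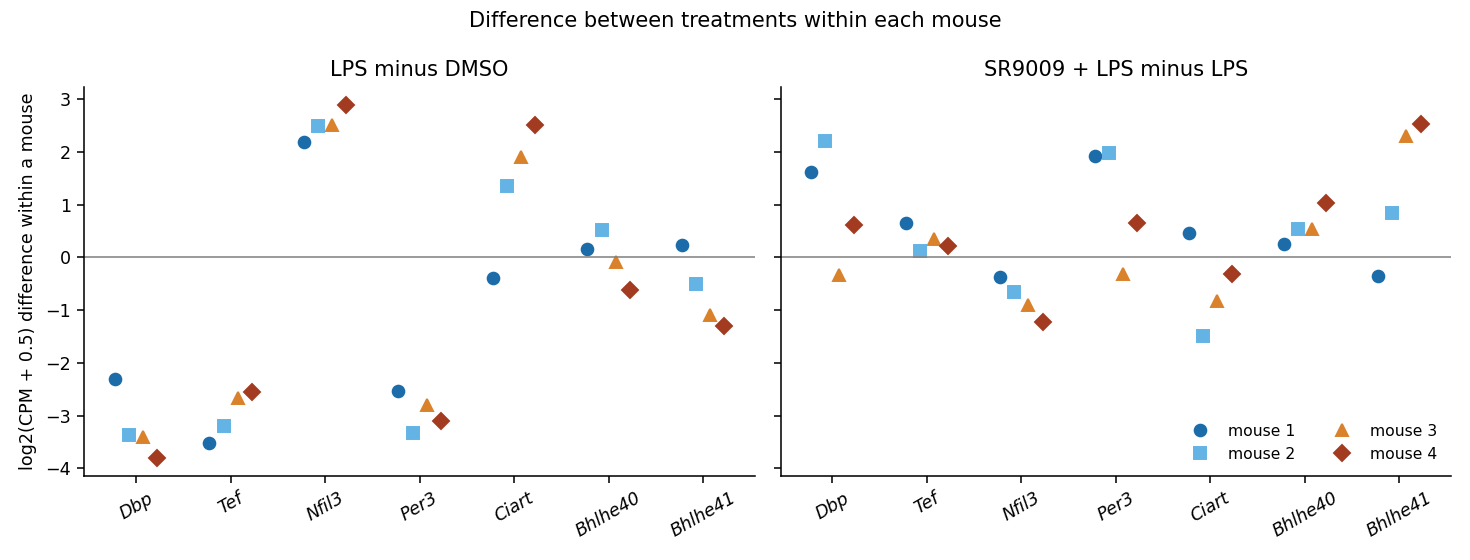
Difference in log2(CPM + 0.5) between treatments within each mouse for the 7 genes, LPS minus DMSO on the left and SR9009 and LPS minus LPS on the right. On the left the 4 mice lie together below 0 for Dbp, Tef and Per3 and above 0 for Nfil3, and on the right Dbp and Per3 are highest in mice 1 and 2 and Bhlhe41 in mice 3 and 4 (2.31 and 2.53).

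The interaction tests whether the effect of SR9009 differed with LPS. Under edgeR, 0 of the 7 passed, where 0.00744% of all genes did, and DESeq2 and limma-voom also gave 0. At an unadjusted p under 0.05 the 3 tools gave 0. The largest values were 1.70 for Dbp (SE 0.98, adjusted p = 0.758), 1.34 for Per3 (SE 0.68, adjusted p = 0.719) and −1.16 for Ciart (SE 0.90, adjusted p = 0.86). Per3 and Ciart each had the same sign in 4 of 4 mice. So did Bhlhe40, at −0.82 (SE 0.42, adjusted p = 0.728). Its 4 differences between SR9009 and DMSO (1.12 to 1.56) were larger than those between SR9009 and LPS and LPS (0.25 to 1.02). Nfil3 was at −0.86 (SE 0.55, adjusted p = 0.795), and it passed with the replicate block and with the mouse 1 library of SR9009 left out (−1.25, adjusted p = 0.00852), where 0.791% of all genes were lower.

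Other clock genes were taken as context. Of 13 tested genes of the core loop, 0 rose and 5 fell with LPS, where 19.4% of all genes rose and 20.4% fell, with a list median of −0.10 against −0.08 over all genes. Leaving out the mouse 1 library of SR9009, which changes the shared estimate of spread, made this 2 and 5, with 26.8% of all genes higher and 30.6% lower. Those with the smallest p were the clock kinase gene Csnk1e (−0.88, edgeR adjusted p = 0.00101), the REV-ERB competitor Rora (−1.46, adjusted p = 0.00373), the REV-ERBβ gene Nr1d2 (−1.37, adjusted p = 0.00439) and Per2 (−0.94, adjusted p = 0.0105), a paralog of Per3. For LPS in SR9009-treated cells the counts were also 0 and 5, where 14.5% of all genes rose and 15.8% fell. They depended on the outlying library, since 1 rose and 5 fell when it was dropped (22.7% and 20.8% over all genes), with Cry1 as the added gene (adjusted p = 0.0168). With SR9009 alone 0 of 13 passed in edgeR, DESeq2 and limma-voom. By the unadjusted edgeR p at 0.05, 4 were higher and none lower, where 1570 of the 13438 tested genes passed. In SR9009 and LPS against LPS these tools again gave 0, also by the unadjusted edgeR p. There 1 core gene, Rora, was higher once the SR9009 library of mouse 1 was left out (adjusted p = 0.0371), where 6.68% of all genes rose. In the interaction none of the genes of the 4 context lists passed in edgeR, DESeq2 or limma-voom, with 1 higher and 4 lower at an unadjusted edgeR p of 0.05. The number over all genes at that unadjusted threshold is not given for the interaction, so these counts are not read as a result about the lists.

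Of 9 tested genes that are clock outputs or PAR bZIP targets, 1 rose and 6 fell with LPS, against 19.4% and 20.4% of all genes, with a median of −2.03 against −0.08 over all genes. With the mouse 1 library of SR9009 dropped, 1 rose and 7 fell (26.8% and 30.6% over all genes). The glucocorticoid-induced regulator gene Tsc22d3 fell by 2.99 (adjusted p = 1.46e-06), the deubiquitinase gene Usp2 fell by 3.17 (adjusted p = 2.79e-06) and the pyridoxal kinase gene Pdxk fell by 3.31 (adjusted p = 0.000167). Alas1, of heme synthesis, rose by 1.71 (adjusted p = 8.6e-06). Hlf, the remaining PAR bZIP gene, had 0 to 4 counts summed over each group and was not tested. For LPS in SR9009-treated cells 1 of the 9 rose and 5 fell, where 14.5% of all genes rose and 15.8% fell. Without the mouse 1 library of SR9009, 1 rose and 6 fell (22.7% and 20.8% over all genes). In SR9009 and LPS against LPS, where 1.06% of all genes rose, 1 of the 9 did, Tsc22d3 (1.45, adjusted p = 0.0154), from 9.67 ± 3.38 to 26.4 ± 7.63 CPM (SD, n = 4), and 2 of the 9 rose when the mouse 1 library of SR9009 was dropped, against 6.68% of all genes.

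Of 17 tested further E-box binding and helix-loop-helix factors, 9 rose and 1 fell with LPS, against 19.4% and 20.4% of all genes, with a median of 0.79 against −0.08. With the mouse 1 library of SR9009 dropped, 11 rose and 3 fell (26.8% and 30.6% over all genes). The risers included Max, the partner of MYC (1.72, adjusted p = 8.24e-07), the dominant negative factor Id2 (2.23, adjusted p = 8.5e-06), Mycl (4.10, adjusted p = 4.43e-05) and the MAX-binding repressor gene Mxd1 (4.22, adjusted p = 0.000458). In SR9009 and LPS against LPS 1 of the 17 passed in edgeR, Max, which was lower (log2 −0.71, adjusted p = 0.0328), where 0.737% of all genes fell. DESeq2 called 3 lower, as did edgeR with the mouse 1 library of SR9009 dropped, where 4.79% of all genes fell. For LPS in SR9009-treated cells 5 of the 17 rose and 0 fell, against 14.5% and 15.8% of all genes. With that library dropped, 6 rose and 3 fell (22.7% and 20.8% over all genes). Of the 7 C/EBP family genes, whose proteins are bZIP factors with sites close to the D-box, 3 rose and 3 fell with LPS, against 19.4% and 20.4% of all genes (median 0.37 against −0.08). Cebpd rose by 2.05 (adjusted p = 0.000264), Cebpb by 2.66 (adjusted p = 0.000364) and Ddit3 by 1.31 (adjusted p = 0.00806), and Cebpa fell by 2.97 (adjusted p = 0.00121). In SR9009 and LPS against LPS none of these C/EBP genes passed. With the mouse 1 library of SR9009 dropped, 1 rose and 1 fell there, against 6.68% and 4.79% of all genes.

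The genes whose profiles over the 16 libraries were most like those of the 7 were found by the root mean square difference of centred log2(CPM + 0.5) values, among 9394 genes (9395 for Ciart) annotated as protein coding whose mean reached 5 CPM. For Tef the nearest was the lysosomal channel gene Tpcn1, at 0.258 log2 units, then Sorbs3 (0.299) and Zfp395 (0.309). For Nfil3 they were Kremen1 (0.343), the junctional adhesion gene F11r (0.351) and the transcription factor gene Stat3 (0.358). Per3 lay nearest to Ankrd44 (0.346), Fmo5 (0.348) and the chromatin remodeller gene Smarca2 (0.352), and Dbp to Arhgef40 (0.539), Enc1 (0.548) and Abhd15 (0.561). Bhlhe40 lay nearest to the glutathione transferase gene Mgst1 (0.334), Epb41l3 (0.335) and Katnal1 (0.355), Bhlhe41 to the death-associated kinase gene Dapk1 (0.393), Ttc12 (0.399) and Rnf128 (0.429), and Ciart to Uspl1 (0.431), Eef1e1 (0.459) and Eif1a (0.461). Among the 7 themselves the nearest pairs were Bhlhe40 with Bhlhe41 (0.551) and Dbp with Per3 (0.597), and the farthest was Dbp with Nfil3 (2.47). A profile without any change lay 0.654 (Bhlhe40) to 1.62 (Dbp) from those of the 7. With a pseudocount of 1 CPM, Eef2k (0.492) was nearest to Dbp and Myo1e (0.329) to Ciart, and Abhd15, Zfp395, Rnf128, Eef1e1 and Eif1a were no longer among the nearest 3. The libraries share treatment and mouse, and the distances carry no test.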

How the data were processed

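Poly(A) RNA was captured for the libraries, per the labels' protocols. HISAT2 and the mm39 (GRCm39) build are named in the submitters' processing notes. The aligner version, how genes were counted, whether strand was used and which annotation was taken are not stated in these sources. The deposited table gives raw counts, with a column for each library, per the file headers. The FPKM values used here were deposited separately for each library, scaled by the authors to length and depth. In each library count over length divided by FPKM was constant for genes with enough reads.

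Counts were fitted with edgeR 4.0.16 in R 4.3.3: filterByExpr (minimum count 10, minimum total 15; 13438 of 56748 genes), TMM factors (0.738 to 1.26), a robust quasi-likelihood fit with 1 mean per group over 16 libraries, and 5 contrasts. Benjamini-Hochberg adjustment ran over all tested genes with a threshold of 0.05. CPM uses the TMM-scaled library sizes. SEs were obtained by dividing the absolute log2 fold change by the root of F. The 95% intervals use the total degrees of freedom of that test, residual plus prior. The script was tested on simulated data with less spread between libraries than these data and no outlying library. That test says nothing on how calls fare under the spread seen here. Alternatives used DESeq2 1.42.0, limma 3.58.1 (voom, or log2 FPKM with a pseudocount of 1 or 0.1), other scalings and filters, a replicate block, and mice left out. The pairing comes from the labels, which name the mouse. Deviations from the group means correlated across genes in all 24 pairs of libraries of the same mouse (r from 0.0604 to 0.623) and ran from −0.648 to 0.596 in 72 pairs of different mice. The medians were 0.287 for the same mouse and −0.0835 for different mice. Since values were centred on group means, the deviations within a group cancel out by construction. The correlations of same-mouse and different-mouse pairs thus depend on each other, and their contrast carries no test. Genes are not independent replicates.

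The 7 genes, the context lists, the markers and the settings were chosen with earlier results of these data known. Named from each list are up to 4 genes past the threshold with the smallest p. Figures were made with Python 3.11.15 and matplotlib 3.10.9.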

Additional observations from a re-analysis of the deposited data

How the results depend on the processing

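Over 16 other settings (15 for the interaction), the LPS calls of Dbp, Tef, Nfil3 and Per3 against DMSO, and those of Tef and Nfil3 in SR9009-treated cells, kept their direction and stayed past the threshold in each. Of 553 values of single genes under these settings, 504 kept their direction and their side of the threshold, 17 lost the call, 18 gained it and 14 changed sign. The number of the 7 genes called with SR9009 against DMSO (1) was 0 with RLE scaling, with no filter, with limma on log2(FPKM + 0.1), with the 2 groups fitted alone and without the SR9009 library of mouse 1, and 0 to 1 with each mouse left out. Over all genes the first 5 of these settings called 111, 101, 105, 4 and 242. For SR9009 and LPS against LPS (0) the number of the 7 was 1 with upper-quartile scaling, DESeq2 and without the SR9009 library of mouse 1 (267, 706 and 1566 over all genes). With each mouse left out it was 0 to 1, and without that library and with the replicate block it was 4 (2900 over all genes). For SR9009 and LPS against SR9009 (3) it was 5 with limma-voom, with the replicate block, and with the block without that library (3948, 4569 and 6845 over all genes). It was 4 with upper-quartile scaling (4485 over all genes), 2 with these groups fitted alone (2113), and 2 to 4 with each mouse left out. For LPS against DMSO (5) it was 4 with limma-voom and with limma on log2(FPKM + 0.1) (5182 and 5306 over all genes), 4 to 6 with each mouse left out, and 5 otherwise. For the interaction (0) it was 1 with the block without that library (271 over all genes). With all libraries kept, the block changed the calls of Dbp and Bhlhe40 in SR9009 and LPS against SR9009 and no other call of the 7.

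The sign of Bhlhe40 with LPS against DMSO turned with upper-quartile scaling (−0.12) and limma-voom (−0.011), and ran from −0.11 to 0.23 with each mouse left out. With SR9009 against DMSO and each mouse left out, Dbp ran from −0.66 to 0.18, Tef from −0.49 to 0.061, Nfil3 from −0.15 to 0.54 and Per3 from −0.032 to 0.34. Without the SR9009 library of mouse 1, Dbp was 0.11 (0.19 with the block), Per3 −0.070 and, with the block, Ciart −0.14. Bhlhe41 in the interaction ran from −0.17 to 0.95 with each mouse left out. None of these 14 values or their main values passed. The cause of these changes was not tested. Over all genes, the number called ran over these settings from 1 to 586 for SR9009 against DMSO (118), 5 to 2900 for SR9009 and LPS against LPS (241), 0 to 271 for the interaction (1), 3506 to 8847 for LPS against DMSO (5352) and 2113 to 6845 for SR9009 and LPS against SR9009 (4070). Depth limits Ciart most, with 7 to 96 counts per library.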

Other observations

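Core clock genes did not all follow the order of mice that Dbp and Per3 showed. They were chosen after their values were seen, and the order of mice was not tested. Nr1d1, the REV-ERBα gene, had 3.00 and 2.67 CPM in the LPS libraries of mice 1 and 2 and 10.2 and 14.6 CPM in those of mice 3 and 4, against 7.32 to 8.10 CPM with DMSO, so that its mean with LPS (7.61 CPM) was close to that with DMSO (7.66 CPM) while no LPS library lay within the DMSO range. Its log2 fold change was −0.01 (edgeR adjusted p = 0.994). With both agents Nr1d1 had 4.47, 4.06, 4.90 and 6.99 CPM. Arntl, which encodes BMAL1, had 25.2 and 24.0 CPM with both agents in mice 1 and 2 and 11.3 and 12.7 CPM in mice 3 and 4. With LPS alone it had 17.8, 15.7, 9.61 and 7.06 CPM. Arntl thus stood in the same order of mice as Dbp, Per3 and Nfil3 with both agents, and Nr1d1 with LPS alone in that of Ciart.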
